A study of Mus musculus with 13 samples.

Results

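The genes described are 9 inhibitory surface receptors of T cells: Pdcd1, Ctla4, Tigit, Lag3, Havcr2, Btla, Cd160, Klrg1 and Cd101. They were picked by gene symbol from the 18649 genes of a deposited table, and all 9 were found there. Transcript levels were measured by RNA sequencing of CD4 T cells sorted from mouse spleen by surface PD-1 and by a GFP reporter of Foxp3. PD1hi cells were high for PD-1 and negative for the reporter (3 libraries). Treg cells were PD-1 negative and carried the reporter (5 libraries). Tconv cells were negative for both (5 libraries). All 3 populations thus come from CD4+ cells with the reporter background. For strain, age, sex, treatment and the number of animals per sort, the labels used here give nothing. Sorts were done in experiments numbered 3, 5 and 6, with all 3 populations in each, and 4 libraries are titled as a replicate of a library of their own experiment and population. Nothing says if such a pair is 2 animals or 2 preparations of 1 RNA. The p-values therefore describe variation among these samples only, and part of it may be technical.

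Inhibitory receptors sit on the T cell surface and dampen signals from the antigen receptor and from costimulatory receptors. Some carry cytoplasmic tyrosine motifs that recruit phosphatases, as PD-1 (Pdcd1), TIGIT and BTLA do, and others act by taking ligands away from an activating partner, as CTLA-4 does with the ligands of CD28. They are induced on activated cells, are found on regulatory and follicular helper T cells, and accumulate on exhausted cells in chronic infection and tumours. In CD4 T cells CTLA-4 and TIGIT are best known from regulatory cells, and PD-1 and BTLA from follicular helper cells.

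Levels are scaled counts, which are reads divided by the authors' size factor of the library. A population's mean ± SD is over 3 values (n = 3), 1 per experiment, with libraries of the same experiment and population averaged first. Differences are log2 values ± SE on the log2(scaled count + 1) scale from limma, fitted over the 14177 genes whose scaled counts averaged 10 or more. All 9 receptor genes passed that filter. A difference passed the test at a Benjamini-Hochberg adjusted p under 0.05 over all genes tested. The 3 comparisons share samples, since each population serves in 2 of them.

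The libraries held 15971126 to 24216463 reads in genes. The sorted identity was checked on 8 CD4 T cell genes and on Foxp3. Cd3e was high in PD1hi (29920 ± 1850), Treg (23540 ± 400) and Tconv (25714 ± 211), and Foxp3 was at 106 ± 33.4, 15889 ± 513 and 291.5 ± 35.8 in the same order. The 8 genes summed to 176687 to 181885 in PD1hi libraries, 129329 to 141120 in Treg and 138984 to 151696 in Tconv. The highest mean was in PD1hi for 6 of the 8, in Treg for Cd2 and in Tconv for Lat. The second Treg library of experiment 3 stood apart from its partner, with a chi-square of 73.49 per degree of freedom over genes, where sampling noise alone gives 1 and the other 3 such pairs gave 7.768 to 9.046. Its levels were 0.427 of its partner's for Cd101, 0.39 for Havcr2, 0.688 for Cd160, 0.757 for Btla and Pdcd1, and 1.15 for Ctla4. Without that library 9, 7 and 7 of the 9 genes passed the test in PD1hi against Tconv, PD1hi against Treg and Treg against Tconv, where 9, 7 and 8 passed with it. The gene that no longer passed was Cd160 in Treg against Tconv (log2 -0.59 ± 0.19, adjusted p = 0.0592, limma).

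Pdcd1 (ENSMUSG00000026285) encodes PD-1, the receptor by which the cells were sorted, so its level in PD1hi cells is a check of the sort and not a finding. PD1hi libraries held 39713, 33610 and 38792 scaled counts in experiments 3, 5 and 6. Treg libraries held 1715 to 2266 and Tconv libraries 900.5 to 1374. The Pdcd1 transcript was thus separated between PD1hi and the other libraries in each experiment, and the PD1hi mean was 33-fold the Tconv mean and 19.1-fold the Treg mean. Both other populations had been sorted as PD-1 negative, yet neither was at 0. Between them Pdcd1 was 1.73-fold higher in Treg (1955 ± 38.5 against 1132 ± 136, log2 0.79 ± 0.13, adjusted p = 0.00118, limma), and the 5 Treg libraries did not overlap the 5 Tconv libraries. In bulk RNA, fewer cells with a transcript and less of it per cell cannot be told apart, here or for any gene below.

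**Figure D1:**
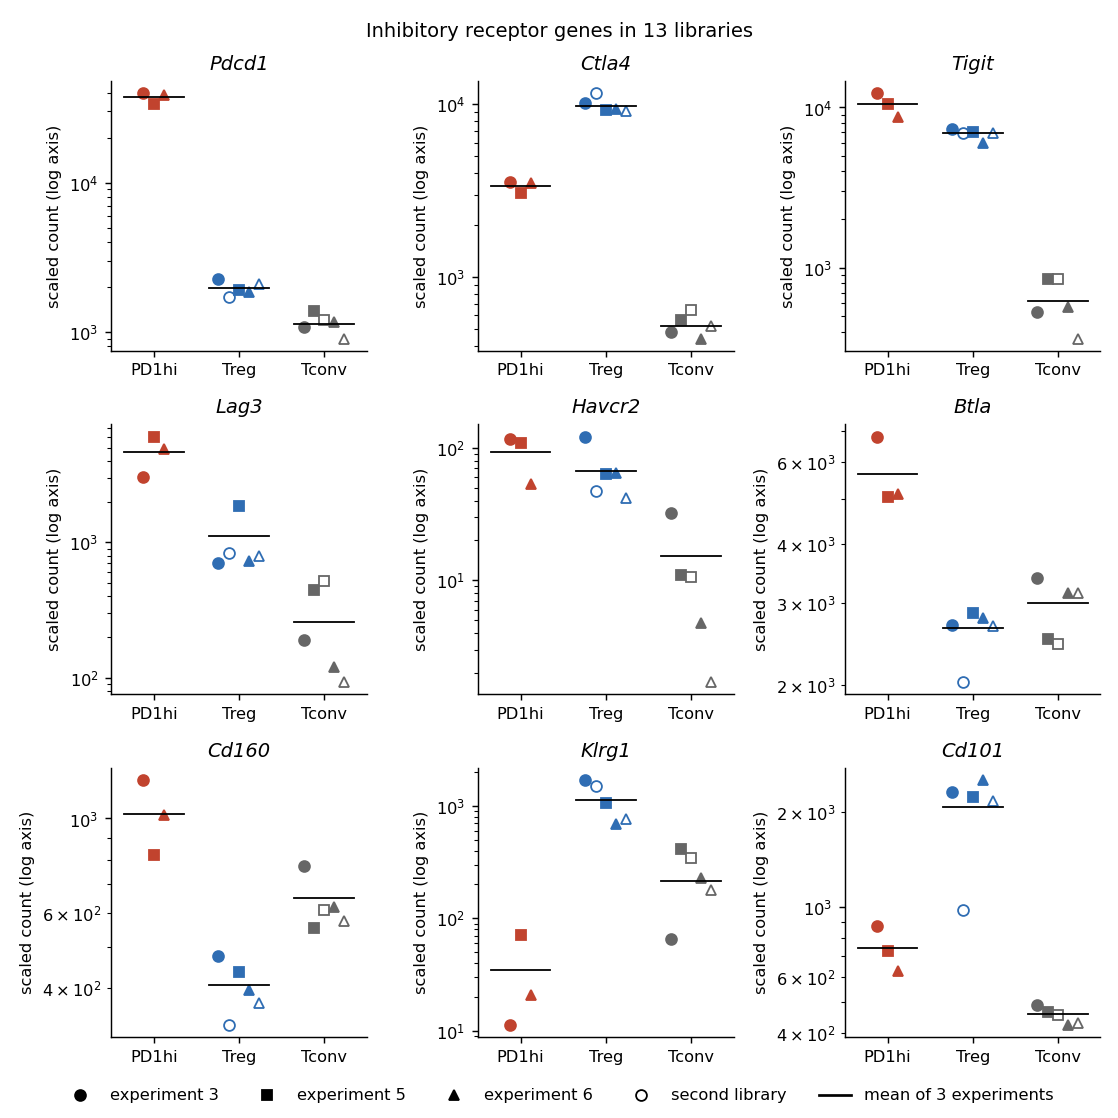
Scaled count (log axis) of each of the 9 receptor genes in all 13 libraries, with 1 point per library, its shape the experiment, open for a second library, and a line at each population's mean of 3 experiments. PD1hi points lie above both other populations for Pdcd1, Tigit, Lag3, Btla and Cd160, Treg points lie highest for Ctla4, Klrg1 and Cd101, and Havcr2 is low throughout.

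The other receptors were compared first between PD1hi and Tconv, which asks what PD-1 high cells without Foxp3 carry that conventional cells do not. Ctla4, Tigit, Lag3, Havcr2, Btla, Cd160 and Cd101 were higher in PD1hi and Klrg1 was lower. With Pdcd1, 8 of 9 rose and 1 fell, where 26.1% of all genes tested passed (14.2% higher, 11.9% lower). The median log2 difference of the 9 genes was 2.70, against 0.00 over all genes. Pdcd1 is in that median, and its difference follows from the sort. The other 8 genes ran from -2.68 (Klrg1) to 4.38 (Lag3). Libraries of the populations did not overlap for the 8 genes that rose, Pdcd1 included. That pattern was seen for 33.8% of all genes in either direction (17.5% higher).

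In PD1hi against Treg, Lag3, Btla, Cd160 and, by the sort, Pdcd1 were higher, while Ctla4, Klrg1 and Cd101 were lower. Tigit and Havcr2 did not pass. The count was 4 higher and 3 lower of 9, where 16.5% of all genes passed (8.16% higher, 8.39% lower). The median size of the difference, whatever its direction, was 1.48 on the log2 scale for the 9 genes and 0.32 over all genes. Pdcd1 is again among the 9, and the other 8 differences ran from -5.33 (Klrg1) to 2.13 (Lag3). Libraries did not overlap for 8 of the 9, 5 higher (Pdcd1 included) and 3 lower, against 22.5% of all genes (11.7% higher, 10.8% lower).

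In Treg against Tconv, 7 of the 9 genes were higher, among them Ctla4, Tigit, Cd101, Lag3, Havcr2, Klrg1 and Pdcd1, and Cd160 was lower. Btla did not pass. Of all genes 14.4% passed, 8.73% higher and 5.66% lower. The median of the 9 genes was 2.25 against 0.01 over all genes. Libraries did not overlap for 8 of the 9 (7 higher, 1 lower), against 19.7% of all genes (10.6% higher, 9.13% lower). The count past the test depended on single values: 5 of 9 passed without the Treg value of experiment 3 and 5 of 9 without that of experiment 5.

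**Figure D2:**
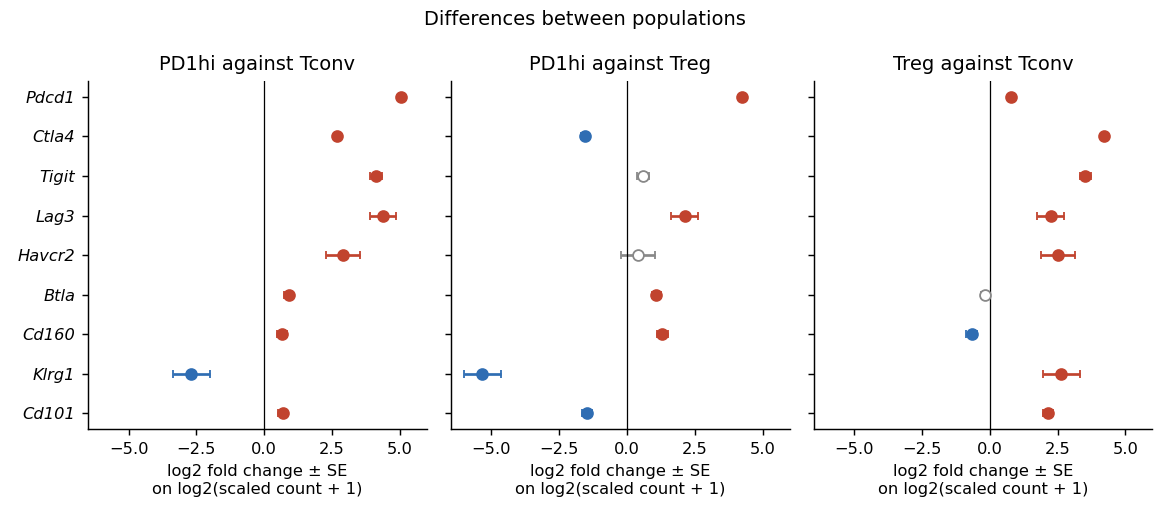
Log2 difference ± SE (horizontal axis) of each receptor gene in the 3 comparisons, from limma with 3 values per population, red where higher and blue where lower past the test. Open grey points did not pass: Tigit and Havcr2 in PD1hi against Treg and Btla in Treg against Tconv. The PD1hi values of Pdcd1 follow from the sort.

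Ctla4 (ENSMUSG00000026011) encodes CTLA-4, which outcompetes CD28 for CD80 and CD86. Its scaled counts were 3566, 3080 and 3485 in PD1hi of experiments 3, 5 and 6. Treg libraries held 10106 and 11575 in experiment 3, 9269 in experiment 5, and 9437 and 9138 in experiment 6. Tconv libraries held 479.5 in experiment 3, 561.1 and 647.4 in experiment 5, and 440.4 and 520 in experiment 6. No library of 1 population overlapped another, so the order was Treg, PD1hi, Tconv in all 3 experiments. Treg exceeded Tconv 18.8-fold in the means (log2 4.23 ± 0.14, adjusted p = 5.75e-09, limma) and PD1hi 2.9-fold (PD1hi against Treg, log2 -1.54 ± 0.14, adjusted p = 1.12e-05). PD1hi exceeded Tconv 6.48-fold (log2 2.70 ± 0.14, adjusted p = 1.70e-07, limma). Ctla4 lies between Cd28 and Icos in the genome. The costimulatory receptor gene Icos differed from Tconv as well, by 1.68 ± 0.11 in PD1hi and 2.02 ± 0.11 in Treg, while the Cd28 difference from Tconv did not pass in either (0.27 ± 0.13 and -0.25 ± 0.13).

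Tigit (ENSMUSG00000071552) encodes a receptor that binds the poliovirus receptor Pvr in competition with the activating receptor CD226. Scaled counts in PD1hi were 12256, 10511 and 8697 in experiments 3, 5 and 6. Those in Treg were 7359 and 6884 in experiment 3, 7070 in experiment 5, and 5994 and 6971 in experiment 6. Tconv libraries held 531.8 in experiment 3, 851.1 and 852.1 in experiment 5, and 568.3 and 361.8 in experiment 6. Every PD1hi library was above every Treg library, and both were far above Tconv. Tigit was 17-fold higher in PD1hi than in Tconv (log2 4.12 ± 0.21, adjusted p = 1.51e-07) and 11.2-fold higher in Treg (3.53 ± 0.21, adjusted p = 6.62e-07, limma). The step from Treg to PD1hi, 1.52-fold in the means, was not past the test (log2 0.59 ± 0.21, 95% interval 0.14 to 1.04, adjusted p = 0.0763, limma). It was higher in 3 of 3 experiments and passed with the experiment as a block, that is with populations paired within experiments (0.59 ± 0.17, adjusted p = 0.0462, limma). It also passed when PD1hi of experiment 6 was left out (adjusted p = 0.0327) and without the Tconv value of experiment 5 (0.0202). Tconv enters this comparison only through the shared variance estimate. In 15 of 21 alternative fits the step did not pass, with an adjusted p of up to 0.201 (without Treg of experiment 6, limma).

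Lag3 (ENSMUSG00000030124), a relative of CD4 that binds MHC class II and FGL1, was highest in PD1hi, with 3033, 6059 and 4905 scaled counts in experiments 3, 5 and 6. Treg libraries held 699.3 and 830.1 in experiment 3, 1845 in experiment 5, and 724 and 793.3 in experiment 6. Tconv libraries held 190.8 in experiment 3, 442.4 and 521.5 in experiment 5, and 120.8 and 93.22 in experiment 6. Experiment 5 gave the highest Lag3 level in each population, and the populations nonetheless did not overlap. PD1hi exceeded Tconv 18-fold in the means, and 15.9-, 12.6- and 45.8-fold within experiments 3, 5 and 6 (log2 4.38 ± 0.49, adjusted p = 4.18e-05, limma). Against Treg the difference was 2.13 ± 0.49 (adjusted p = 0.01, limma), and it was not past the test without the Treg value of experiment 3 (1.92 ± 0.57, adjusted p = 0.0506). With the experiment as a block the difference from Treg was 2.13 ± 0.30 (adjusted p = 0.00116, limma). Treg exceeded Tconv by 2.25 ± 0.49 (adjusted p = 0.0083, limma). Lag3 lies beside Cd4, and the order of the populations was not that of Cd4, with 40736 ± 5837 scaled counts in PD1hi, 28067 ± 1638 in Tconv and 17161 ± 1945 in Treg.

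Havcr2 (ENSMUSG00000020399) encodes TIM-3, a receptor of terminally differentiated and exhausted T cells that binds galectin-9. It was the least abundant of the 9 genes in Tconv. PD1hi held 116.8, 109.1 and 53.27 scaled counts in experiments 3, 5 and 6. Treg held 121.7 and 47.52 in experiment 3, 63.95 in experiment 5, and 64.62 and 42.04 in experiment 6. Tconv held 31.97 in experiment 3, 10.89 and 10.66 in experiment 5, and 4.74 and 1.71 in experiment 6, which stand for 30, 11, 10, 4 and 2 reads. PD1hi and Treg libraries overlapped, and both lay above all Tconv libraries. PD1hi exceeded Tconv by 2.92 ± 0.63 (adjusted p = 0.0045, limma), which ran from 2.17 without the Tconv value of experiment 6 to 3.66 without that of experiment 3. Treg exceeded Tconv by 2.51 ± 0.63 (adjusted p = 0.0182, limma). This call was lost without Treg of experiment 3 (2.33 ± 0.74, adjusted p = 0.0727) or 5 (2.53 ± 0.74, 0.0539), and without Tconv of experiment 5 (2.51 ± 0.73, 0.0509) or 6 (1.77 ± 0.52, 0.0582). Without Tconv of experiment 3 it was 3.25 ± 0.54 and passed. Between PD1hi and Treg the difference was 0.41 ± 0.63, with a 95% interval of -0.97 to 1.78 (adjusted p = 0.738, limma), so these data neither show a difference nor limit it to a small one.

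Btla (ENSMUSG00000052013) and Cd160 (ENSMUSG00000038304) encode receptors that both bind HVEM, the product of Tnfrsf14. Both transcripts were highest in PD1hi. Btla was at 6798, 5037 and 5123 scaled counts in PD1hi of experiments 3, 5 and 6, at 2031 to 2850 in Treg libraries (median 2683) and at 2450 to 3381 in Tconv libraries (median 3141). PD1hi exceeded Tconv 1.88-fold (log2 0.91 ± 0.16, adjusted p = 0.00131, limma) and Treg 2.14-fold (1.09 ± 0.16, adjusted p = 0.000553). Treg and Tconv libraries overlapped, and their difference was -0.17 ± 0.16 with a 95% interval of -0.53 to 0.18 (adjusted p = 0.588, limma).

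Cd160 was at 1232, 822.4 and 1019 scaled counts in PD1hi of experiments 3, 5 and 6, at 327.3 to 475.6 in Treg libraries (median 395.2) and at 553.2 to 773.7 in Tconv libraries (median 611.1). The order was PD1hi, Tconv, Treg in 3 of 3 experiments, with no overlap between libraries. PD1hi exceeded Treg by 1.31 ± 0.19 (adjusted p = 0.000354, limma). The PD1hi difference from Tconv, 0.65 ± 0.19 (adjusted p = 0.0225, limma), was not past the test without PD1hi of experiment 3 (0.0819), Tconv of experiment 5 (0.0802) or Tconv of experiment 6 (0.0908). Treg was below Tconv by a log2 difference of -0.67 ± 0.19 (adjusted p = 0.0311, limma). That call was lost without Treg of experiment 3 (0.0807), 5 (0.0598) or 6 (0.103), or without Tconv of experiment 3 (0.151) or 6 (0.0652). The exons of Cd160 overlap those of Pdzk1 on the opposite strand by 68 bases in the GENCODE annotation. Whether reads were counted by strand is not given in the sources used here, so reads there cannot be assigned to 1 of the 2 genes.

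Klrg1 (ENSMUSG00000030114) encodes a lectin-like receptor of terminal effector T cells, NK cells and effector Treg cells that binds E-cadherin. It went against the other receptors in PD1hi against Tconv, while in PD1hi against Treg Ctla4 and Cd101 were lower as well. PD1hi held 11.27, 71.74 and 20.66 scaled counts in experiments 3, 5 and 6, from 11, 71 and 19 reads. Treg held 1699 and 1513 in experiment 3, 1065 in experiment 5, and 693.1 and 759.9 in experiment 6. Tconv held 65 in experiment 3, 411.7 and 346.6 in experiment 5, and 226.1 and 180.5 in experiment 6. Treg libraries were above all others, and the PD1hi library of experiment 5 overlapped the Tconv library of experiment 3. Within each experiment the order was Treg, Tconv, PD1hi. Treg exceeded PD1hi 32.8-fold in the means, and 142-, 14.8- and 35.2-fold in experiments 3, 5 and 6 (PD1hi against Treg, log2 -5.33 ± 0.68, adjusted p = 0.000154, limma). That difference was -6.04 ± 0.62 without the PD1hi library of experiment 5. Klrg1 was lower in PD1hi than in Tconv by -2.68 ± 0.68 (adjusted p = 0.011, limma). With 1 value left out this ran from -2.11 (without Tconv of experiment 5, adjusted p = 0.0484) to -3.40 (without PD1hi of experiment 5).

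The Klrg1 excess of Treg over Tconv differed between experiments, at 24.7-fold in experiment 3 and 2.81- and 3.57-fold in experiments 5 and 6 (log2 2.64 ± 0.68, adjusted p = 0.02, limma). It was not past the test without Treg of experiment 3 (adjusted p = 0.0862) or 5 (0.0613), or without Tconv of experiment 3 (0.0843). Markers of CD8 and innate-like T cells and of NK cells, which can carry KLRG1, were summed beside it. Of 12 such genes 11 were in the table and none was at 0 in a population. The highest mean was in Tconv for 9 of the 11, in PD1hi for Eomes (190 ± 74.6 against 34.87 ± 1.45 in Treg and 175.6 ± 38.7 in Tconv) and in Treg for Klra8, which had a mean of 2.572 ± 0.858 there. The summed scaled count of the 11 was 878.4 to 1215 in PD1hi libraries, 1083 to 1424 in Treg and 4005 to 4356 in Tconv. The perforin gene Prf1 was the largest part of the sum in Tconv, with 1578 ± 185 there, 666.7 ± 101 in Treg and 253.2 ± 82.1 in PD1hi. In PD1hi, Treg and Tconv, Cd8b1 was at 98.11 ± 40.2, 259.7 ± 55.1 and 423.6 ± 37.7, Klrb1c at 261.6 ± 92.5, 141.4 ± 55.5 and 984.1 ± 59, Klrk1 at 74.45 ± 16.8, 81.73 ± 22.3 and 595.3 ± 81, and Cd8a at 6.782 ± 7.74, 5.552 ± 6.24 and 8.427 ± 8.39. The part of such cells in the Klrg1 and Cd160 differences from Tconv was not tested. Nor was it tested for the differences of Klrk1, Klrd1 and Klrc1 given below.

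Cd101 (ENSMUSG00000086564) encodes an immunoglobulin-family receptor found on regulatory T cells and on terminally exhausted CD8 T cells. PD1hi held 870.1, 724.4 and 628.4 scaled counts in experiments 3, 5 and 6. Treg held 2303 and 982.6 in experiment 3, 2220 in experiment 5, and 2523 and 2165 in experiment 6. Tconv lay in a narrow range, from 423.9 to 491.3. The order was Treg, PD1hi, Tconv in 3 of 3 experiments, as for Ctla4, with no overlap even for the low Treg library. Treg exceeded Tconv 4.5-fold (log2 2.15 ± 0.18, adjusted p = 8.87e-06, limma), and 2.32 ± 0.15 without that library. PD1hi was lower than Treg (log2 -1.48 ± 0.18, adjusted p = 0.000112) and higher than Tconv (0.68 ± 0.18, adjusted p = 0.0144, limma). The latter was not past the test without PD1hi of experiment 3 (0.0531) or Tconv of experiment 6 (0.0616), or with all 13 libraries fitted with duplicateCorrelation (0.0728).

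**Figure D3:**
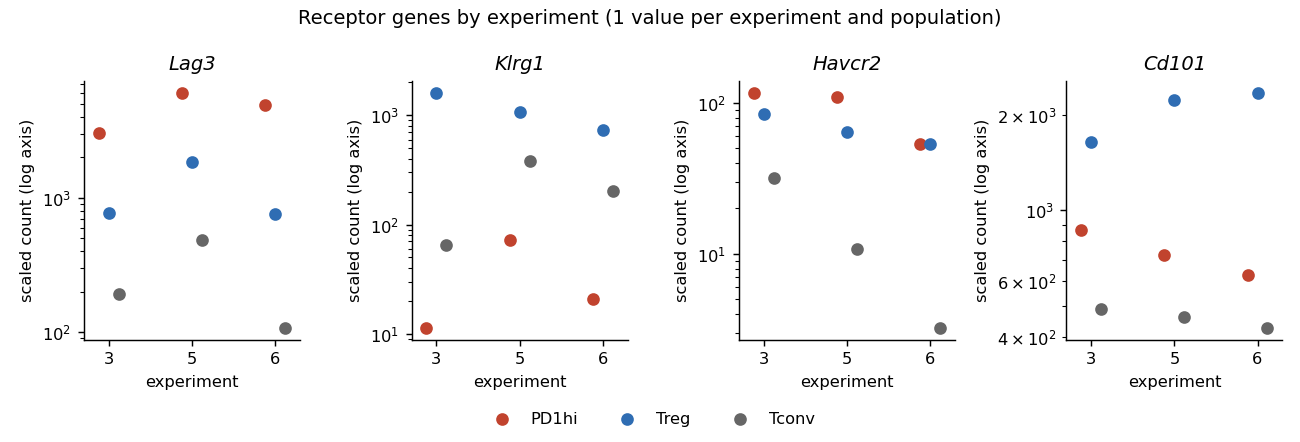
Scaled count (log axis) of Lag3, Klrg1, Havcr2 and Cd101 in experiments 3, 5 and 6, with 1 point per experiment and population. Lag3 is highest in experiment 5 in each population, while Klrg1 in experiment 3 is highest in Treg and lowest in PD1hi and Tconv.

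Levels were also compared between genes, as scaled counts per kilobase of exon. The length was that of all GENCODE exons of a gene merged. It need not be the length over which the authors counted reads, and the order of genes depends on it. In PD1hi, Pdcd1 was at 19364 ± 1705 per kilobase, Tigit at 11412 ± 1936, Lag3 at 2212 ± 724, Btla at 1664 ± 292 and Ctla4 at 1449 ± 112. The last 3 overlap within their SD. In Treg, Tigit led at 7499 ± 386, followed by Ctla4 at 4206 ± 387, Pdcd1 at 1013 ± 20, Klrg1 at 801 ± 314 and Btla at 779 ± 75.6. In Tconv, Btla was at 883 ± 138, Tigit at 670 ± 225 and Pdcd1 at 586 ± 70.4, so that the receptor with the highest mean level in Tconv was one whose population means differed by at most 2.14-fold. Havcr2 was low in all 3, at 34.2 ± 12.7, 24.7 ± 5.85 and 5.63 ± 5.48 per kilobase in PD1hi, Treg and Tconv, and Klrg1 reached 24.4 ± 23 per kilobase in PD1hi.

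**Figure D4:**
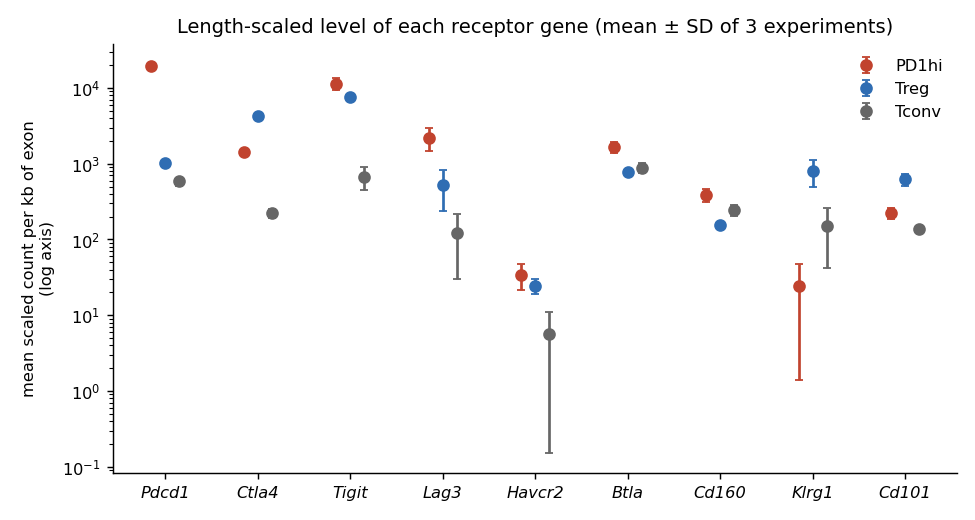
Mean scaled count per kilobase of exon (log axis) ± SD over 3 experiments for each receptor gene and population. Tigit is high in both PD1hi and Treg, Pdcd1 leads in PD1hi, and Havcr2 is lowest in Treg and Tconv.

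Promoter sequences are shown for receptors whose transcript was higher in both PD1hi and Treg than in Tconv (Ctla4, Tigit, Havcr2, Cd101) and for Btla, leaving out Pdcd1, whose PD1hi level follows from the sort, and Lag3, which was not matched. The Btla transcript did not pass the test between Treg and Tconv. The sequences are the 250 bases before the gene start from RefSeq on the build GRCm38.p6, written 5′ to 3′ on the gene's strand: chr1:60908775-60909024 (plus strand) for Ctla4, chr16:43664185-43664434 (minus) for Tigit, chr11:46454681-46454930 (plus) for Havcr2, chr3:101029554-101029803 (minus) for Cd101 and chr16:45224087-45224336 (plus) for Btla. Capitals mark matches on either strand to the core of the NFAT site (GGAAA), to the AP-1 site (TGANTCA) and to the RUNX site (TGTGGT), factors known to act in activated T cells.
Ctla4 promoter: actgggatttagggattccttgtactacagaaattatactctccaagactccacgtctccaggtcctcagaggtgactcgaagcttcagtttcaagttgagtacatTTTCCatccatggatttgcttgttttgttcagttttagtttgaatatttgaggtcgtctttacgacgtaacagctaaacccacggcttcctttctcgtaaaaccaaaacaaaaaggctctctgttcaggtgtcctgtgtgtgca
Tigit promoter: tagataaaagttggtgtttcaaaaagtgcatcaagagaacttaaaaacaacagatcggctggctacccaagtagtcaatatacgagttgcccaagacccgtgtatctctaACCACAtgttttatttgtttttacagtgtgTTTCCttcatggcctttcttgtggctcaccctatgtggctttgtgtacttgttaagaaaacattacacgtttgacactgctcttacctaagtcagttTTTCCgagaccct
Havcr2 promoter: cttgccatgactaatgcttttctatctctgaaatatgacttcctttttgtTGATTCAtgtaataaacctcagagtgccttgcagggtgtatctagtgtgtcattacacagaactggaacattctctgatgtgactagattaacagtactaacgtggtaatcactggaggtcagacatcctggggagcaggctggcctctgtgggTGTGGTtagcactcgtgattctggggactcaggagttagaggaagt
Cd101 promoter: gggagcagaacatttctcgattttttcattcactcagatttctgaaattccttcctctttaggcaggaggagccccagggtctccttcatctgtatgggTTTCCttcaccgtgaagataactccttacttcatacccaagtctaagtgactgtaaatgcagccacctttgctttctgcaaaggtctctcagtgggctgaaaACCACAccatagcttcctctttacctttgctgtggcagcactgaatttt
Btla promoter: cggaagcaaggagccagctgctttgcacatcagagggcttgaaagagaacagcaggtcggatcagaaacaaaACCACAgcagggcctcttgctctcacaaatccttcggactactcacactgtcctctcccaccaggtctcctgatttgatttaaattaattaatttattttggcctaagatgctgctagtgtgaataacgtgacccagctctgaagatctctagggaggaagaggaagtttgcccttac
The RUNX letters were found in 6 of the 8 promoters of the 7 receptor genes that matched the RefSeq table (Cd160 has 2 promoters), where 14% of 32817 promoters of the same length hold them. They stood 140 bases before the start in Tigit, 46 in Havcr2, 49 in Cd101 and 178 in Btla, and also in both Cd160 promoters, but not in those of Pdcd1 and Ctla4. The NFAT core was in 5 of 8, near its share of 55.6% among all promoters, with 2 matches each in Pdcd1 and Tigit and 1 in Ctla4. The AP-1 letters were in 1 of 8, that of Havcr2 at 200 bases before the start (6.75% of all promoters). These shares were not matched for base content. Among the promoters with RUNX letters, G and C made up 40% in Tigit, 44.8% in Havcr2, 45.2% in Cd101 and 47.2% in Btla. They made up 47.6% and 55.2% in the Cd160 promoters, and the median over all promoters was 52.4%. A match in letters is no measure of binding.

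Genes around the receptors were drawn from lists of their ligands, activating partners, other inhibitory receptors, signalling partners and transcription factors. Of 13 ligand genes tested, 4 were higher and 4 lower in PD1hi than in Tconv, where 14.2% of all genes were higher and 11.9% lower (median log2 0.33, all genes 0.00). Cd80, a ligand of CTLA-4 and CD28, rose by 3.61 ± 0.25 (294.4 ± 51 against 23.09 ± 3.05), and the PD-1 ligand gene Pdcd1lg2 by 3.22 ± 0.29 (634 ± 153 against 67.79 ± 19). The E-cadherin gene Cdh1, whose product binds KLRG1, was at 6.404 ± 10.2 against 46.39 ± 7.44 (log2 -3.79 ± 1.08, adjusted p = 0.0217), and Lgals9, the galectin that binds TIM-3, fell by 1.05 ± 0.11 (adjusted p = 2.42e-05, limma). In Treg against Tconv 5 ligand genes were higher and 1 lower (8.73% and 5.66% of all genes), led by Cd80 (3.64 ± 0.25) and Cd86 (2.69 ± 0.24), the ligands that CTLA-4 captures. Cd86 separated Treg from PD1hi, at 1431 ± 318 against 125.4 ± 39.6. In that comparison 3 ligand genes were higher in PD1hi and 2 lower (8.16% and 8.39% of all genes), and Tnfrsf14, which encodes the shared ligand of BTLA and CD160, was at 134.8 ± 11.8 against 76.71 ± 18.5 in Treg (0.83 ± 0.26, adjusted p = 0.0478, limma).

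Of 16 activating counterparts, 7 were higher and 3 lower in PD1hi than in Tconv (14.2% and 11.9% of all genes, median log2 0.31). The costimulatory receptor genes Tnfrsf4 (3.01 ± 0.20) and Icos (1.68 ± 0.11) rose, and Klrk1 (-3.00 ± 0.28) and Cd226 (-1.84 ± 0.19) fell. Klrk1 is also among the CD8, NK and innate-like T markers summed above. Cd226, the activating rival of TIGIT, was at 607.4 ± 143 in PD1hi and 2147 ± 271 in Tconv, the reverse of Tigit itself. Against Treg 6 were higher and 7 lower in PD1hi (8.16% and 8.39% of all genes). Crtam, an adhesion receptor (3.14 ± 0.21), and Tnfsf14, the cytokine LIGHT that also binds HVEM (3.04 ± 0.33), were higher, and Tnfrsf9 (-1.82 ± 0.15) and Icosl (-1.69 ± 0.22) were lower. In Treg against Tconv 6 rose, with Tnfrsf4 at 3.68 ± 0.20 and Tnfrsf9 at 3.49 ± 0.15, and 6 fell, with Cd40lg, the ligand by which helper cells stimulate B cells, at -2.73 ± 0.15 (8.73% and 5.66% of all genes).

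Inhibitory receptors outside the 9 were counted as well. Of 19 tested, 2 were higher and 7 lower in PD1hi than in Tconv (14.2% and 11.9% of all genes, median log2 -0.79 against 0.00). Lair1, a collagen receptor, fell by 3.65 ± 0.26 (38.26 ± 8.85 against 484.1 ± 52), and Cd22, a lectin best known from B cells, rose by 3.26 ± 0.23 (1675 ± 243 against 178.5 ± 51.8). The summed level of 12 B cell markers, Cd22 included, was 1800 to 2465 in PD1hi libraries, 1097 to 1517 in Treg and 352.8 to 564.8 in Tconv, and none was at 0 in a population. Cd22 made up most of that sum in PD1hi, and the order turned without it: the other 11 markers summed to 308.8 to 515.5 in PD1hi, 829.8 to 1244 in Treg and 190 to 336.7 in Tconv. The defining B cell gene Ms4a1 was at 38.34 ± 42.6, 31.29 ± 24.1 and 19.5 ± 28.3 in PD1hi, Treg and Tconv, with SDs as large as the differences between those means. Of the 12 markers, 6 had their highest mean in PD1hi and 6 in Treg. Those highest in PD1hi were Cd22, Ms4a1, Pax5, Ebf1, Cr2 and Blk. In PD1hi, Treg and Tconv, Pax5 was at 6.484 ± 4.01, 0.5389 ± 0.933 and 1.066 ± 1.85. Ebf1 was at 12.96 ± 10.7, 3.775 ± 5.32 and 3.349 ± 1.91, and Cr2 at 28.35 ± 12.2, 16.12 ± 9.11 and 20.58 ± 3.76. Blk was at 8.802 ± 10.9, 7.186 ± 7.19 and 6.119 ± 4.59. Among those highest in Treg, Cd79b was at 129.7 ± 39.4, 629.4 ± 83.8 and 57.84 ± 3.12 in PD1hi, Treg and Tconv. Bank1 was at 89.45 ± 36.4, 234.1 ± 29.4 and 109.7 ± 15.2. Myeloid and dendritic markers (13 genes) summed to 488 to 683.6 in PD1hi libraries, 320.7 to 1015 in Treg and 436.4 to 901.5 in Tconv. The part of other cells in the Cd22 level was not tested, nor was it for Cd86 above or Cd72 and Lilrb4 below. In PD1hi against Treg 3 of the 19 were higher and 5 lower (8.16% and 8.39% of all genes), with Cd72, a receptor gene best known from B cells, at -3.14 ± 0.17 and Lilrb4 at -1.99 ± 0.37. In Treg against Tconv, where 8.73% of all genes were higher and 5.66% lower, 3 were higher, led by Lilrb4 (3.24 ± 0.37), and 4 lower, led by Klrd1 (-4.73 ± 1.12) and Klrc1 (-3.01 ± 0.40), which encode the 2 chains of the CD94 and NKG2A receptor.

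Among 22 signalling and trafficking genes, 5 were higher and 4 lower in PD1hi than in Tconv (14.2% and 11.9% of all genes, median log2 0.13). Ptpn11, which encodes SHP-2, the phosphatase recruited by PD-1, reached 4970 ± 333 in PD1hi against 640.4 ± 22.8 in Tconv and 443.1 ± 38.4 in Treg, and so was higher by 2.95 ± 0.13 (adjusted p = 7.81e-08) and 3.49 ± 0.13 (adjusted p = 1.15e-08, limma). Trat1, an adaptor that stabilises CTLA-4 and the antigen receptor at the surface, was lower in PD1hi by log2 -2.69 ± 0.17 against Tconv and -2.20 ± 0.17 against Treg. Pag1, an adaptor that brings the inhibitory kinase CSK to the membrane, was lower by -1.78 ± 0.14 and -1.03 ± 0.14. Against Treg 6 were higher and 4 lower in PD1hi (8.16% and 8.39% of all genes). In Treg against Tconv 2 were higher and 4 lower (8.73% and 5.66% of all genes). Lrba, which protects CTLA-4 from lysosomal breakdown, rose by 1.10 ± 0.16 (1140 ± 222 against 526.1 ± 48.3), and Ptpn6, which encodes the phosphatase SHP-1, fell by 0.83 ± 0.13.

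Of 22 transcription factor genes, 12 were higher and 4 lower in PD1hi than in Tconv (median log2 0.82), 10 and 4 in PD1hi against Treg (0.76) and 9 and 4 in Treg against Tconv (0.59). Of all genes 14.2% were higher and 11.9% lower in the first of these comparisons, 8.16% and 8.39% in the second and 8.73% and 5.66% in the third. The 22 include Foxp3, whose reporter defined Treg. Its difference thus follows from the sort in PD1hi against Treg (-7.27 ± 0.22) and in Treg against Tconv (5.77 ± 0.22). Tox2, a relative of the exhaustion factor TOX, reached 3957 ± 910 in PD1hi, with 77.97 ± 29.4 in Tconv and 316.7 ± 158 in Treg. Nfil3, known to raise Havcr2 in T cells, was 4.73 ± 0.53 higher in PD1hi than in Tconv. Bcl6, the follicular helper regulator, was at 4036 ± 409 in PD1hi and 438.4 ± 108 in Treg, and its antagonist Prdm1 at 557.3 ± 261 and 2494 ± 363. Prdm1 is also among 5 plasma cell markers, of which 3 had their highest mean in Treg and 2 in PD1hi. The 5 summed to 3909 to 7334 in PD1hi libraries, 6511 to 9611 in Treg and 2231 to 3249 in Tconv. The part of plasma cells in the Prdm1 level was not tested. Bach2, a factor of resting cells, fell by 2.19 ± 0.20 in PD1hi against Tconv, and in Treg against Tconv Ikzf2 rose by 4.38 ± 0.14 while Tcf7 fell by 2.74 ± 0.13.

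**Figure D5:**
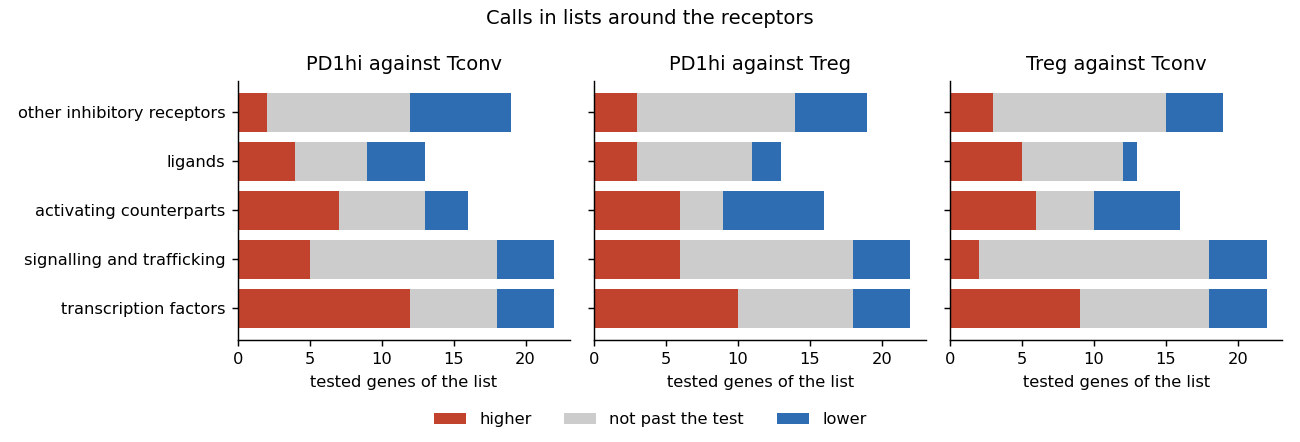
Number of tested genes (horizontal axis) in 5 lists of related genes that were higher (red), not past the test (grey) or lower (blue) in each of the 3 comparisons. In PD1hi against Tconv 12 of 22 transcription factor genes were higher, and 7 of 19 other inhibitory receptors were lower.

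Genes whose pattern over the 9 values was most like each receptor were found by the root mean square difference of centred log2 levels, where 0 is an identical pattern. For Tigit these were Vsig10 (0.28), Tnfrsf8, the CD30 receptor gene (0.31), and the growth factor gene Csf1 (0.32). For Ctla4 they were the histone deacetylase gene Hdac9 (0.28), Bicd1 (0.36) and A330049M08Rik (0.37). Pdcd1 was most like Angptl2 (0.40), Smtn (0.41) and Apoe (0.42), and Lag3 most like Spock2 (0.47), Reep1 (0.51) and Coro2b (0.51). The mitotic genes Pbk (0.39) and Ube2c (0.40) came nearest to Havcr2, with Rab26 at 0.43. Those for Btla were Wdfy1 (0.13), Stat4 (0.14) and 2310004I24Rik (0.14), and those for Cd160 were St3gal1 (0.13), Trav14-1 (0.17) and 2810405K02Rik (0.19). For Klrg1 the IL-33 receptor gene Il1rl1 was nearest at 0.67, then Col15a1 (0.83) and Ppm1l (0.86). The distance tends to grow with a gene's own spread, a root mean square of 2.35 for Klrg1 and 0.51 for Btla. It thus does not rank the matches of different receptors. Nearest to Cd101 were Tns1 (0.20), Fam129a (0.21) and Gm4841 (0.22).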

How the data were processed

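Per the labels' protocols, Trizol-extracted RNA was depleted of ribosomal RNA and sequenced on Ion Torrent. The submitters' processing notes list Picard, HTSeq 0.5.4 and limma, and as builds mm9, hg19 and GRCh37 with no role for any. The aligner is not given in the sources used here, nor is the strand setting. A single table of signal values was deposited by the authors, which its name calls counts scaled by size factors. After 1 was subtracted, 100% of values were whole reads (within 0.001) multiplied by 1 constant per library.

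Averaging within experiment and population gave 9 values. Genes averaging 10 or more scaled counts were tested with limma 3.58.1 in R 4.3.3, with a variance trend, on log2(scaled count + 1). The test was 2-sided, the 3 populations shared the variance estimate, and p-values were Benjamini-Hochberg adjusted. The procedure was tested on simulated data. The receptors and gene lists were chosen with earlier results of these data known. Text names all 9 receptors, per list and comparison at most the 2 largest rises and falls past the test, and the 3 genes most like each receptor. The experiment numbers in the titles pair the populations. Deviations of values from the same experiment correlated at 0.20, 0.12 and 0.02 (PD1hi and Tconv), 0.09, 0.17 and -0.07 (PD1hi and Treg) and 0.24, 0.22 and 0.30 (Treg and Tconv). Those from different experiments correlated at -0.27 to 0.13, -0.22 to 0.08 and -0.14 to -0.10 for the same pairs of populations. Exon lengths came from the GENCODE annotation and promoters from RefSeq (GRCm38.p6), where Lag3 and Klrg1 were not matched. Alternatives were other ways to treat second libraries, other pseudocounts, filters, scalings and variance models, the block, and leaving out each value.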

Additional observations from a re-analysis of the deposited data

Results flagged for a closer look

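Among 18 groups of 5 libraries (9 receptors in Treg and in Tconv), 4 held a library far from the rest by Dixon's test at the 95% level, where chance flags about 1 group in 20. All 4 were Treg groups. The 5 libraries include 2 pairs from the same experiment, so they are not fully separate. Lag3 was at 1845.13 in the Treg library of experiment 5, with the nearest other at 830.10. Without the Treg value of experiment 5 the Lag3 difference of Treg from Tconv was 1.82 ± 0.50 instead of 2.25 ± 0.49 (limma adjusted p = 0.0418). Havcr2 was at 121.70 in the first Treg library of experiment 3, with the nearest other at 64.62. In the second Treg library of experiment 3, Btla was at 2031.17 (nearest other 2668.71) and Cd101 at 982.62 (nearest other 2165.36). Without that library the difference of PD1hi from Treg was 1.02 ± 0.15 for Btla and -1.64 ± 0.15 for Cd101, and both passed the test.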

How the results depend on the processing

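Each receptor's difference was recomputed under each alternative, 567 values in all. None reversed a called direction, 538 kept their side of the threshold, 23 lost a call and 6 gained one. Leaving out 1 of the 9 values gave 7 to 9 receptors past the test in PD1hi against Tconv, 6 to 8 in PD1hi against Treg and 5 to 8 in Treg against Tconv. The count of 5 arose without the Treg value of experiment 3 or of experiment 5. All genes past the test then numbered 2710 to 3803, 1764 to 2559 and 1421 to 2666. The other alternatives gave 8 to 9, 7 to 8 and 6 to 8 receptors. With the experiment as a replicate block 9, 8 and 8 receptors and 3974, 2579 and 2204 genes passed, and the block changed no receptor's call other than that of Tigit in PD1hi against Treg. That call was also gained with the first library of each experiment (adjusted p = 0.0441), with equal totals (0.0439) and with the 2 populations alone (0.0348). In Treg against Tconv, Cd160 lost its call with first libraries only (0.0761) and with no variance trend (0.0597), and Klrg1 with no trend (0.0651, all limma). With libraries scaled to equal totals, 2457 genes were higher and 1299 lower in PD1hi than in Tconv (65.4% against 54.4% higher), and the overall median shifted by 0.143, less than any receptor difference past the test. Havcr2 in Tconv and Klrg1 in PD1hi rested on few reads, which limits the precision of their folds.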

Other observations

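The genes that flank the 9 receptors in the genome were also read. Of 18 flanking places, 14 held a tested gene, of which 6 were higher and 0 lower in PD1hi than in Tconv, 4 and 0 in PD1hi against Treg, and 3 and 1 in Treg against Tconv (limma). Of all genes 26.1%, 16.5% and 14.4% passed in these comparisons (14.2%, 8.16% and 8.73% higher, 11.9%, 8.39% and 5.66% lower). Cd200, the gene of an inhibitory ligand beside Btla, was higher in PD1hi by 2.25 ± 0.20 against Tconv and 1.34 ± 0.20 against Treg. Ptms, the parathymosin gene beside Lag3, was higher in PD1hi than in Tconv by 2.97 ± 0.57. Ptgfrn, an immunoglobulin-family gene beside Cd101, was higher in PD1hi by 3.19 ± 0.66 against Tconv and 2.89 ± 0.66 against Treg, while Cd101 itself was highest in Treg. Med7, a Mediator subunit gene beside Havcr2, was higher than in Tconv by 1.33 ± 0.19 in PD1hi and 1.11 ± 0.19 in Treg. These flanking genes were named after their values were seen.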
